A study of Mus musculus with 7 samples.

Results

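Tip60-p400 is a large chromatin regulatory complex whose own subunits are encoded by genes that can be examined as ChIP targets, and the profiles collected here were read at 10 of these genes: Kat5 (the gene for Tip60), Ep400 (the gene for p400), Trrap, Epc1, Ing3, Ruvbl1, Ruvbl2, Actl6a, Yeats4 and Dmap1. Every transcription start site (TSS) listed under 1 of these symbols was taken, which gave 18 start sites, or rows, of 36733 in the Flag ChIP files and of 22704 in the p400 files. For each gene the most upstream row is called the 5′-most row (10 rows), and the remaining 8 rows are called downstream rows. Some of them overlap: the 3 Kat5 rows lie within 359 bp and the 2 Ing3 rows lie 423 bp apart, so they largely share the same reads.

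All libraries came from E14 mouse embryonic stem cells (ESCs), with 1 library per condition and no replicates. Tip60-H3F and Hdac6-H3F ESCs carry a C-terminal tag of histidines and Flag epitopes at the endogenous Tip60 gene (1 copy of it) or the endogenous Hdac6 gene, and their chromatin was precipitated with anti-Flag M2 antibody 72 hr after infection with shRNA virus. Tip60 was profiled upon GFP KD (a control knockdown) and upon Hdac6 KD, and Hdac6 upon GFP KD and upon Tip60 KD. A Flag ChIP of wild type ESCs, which carry no tag, gave the background. Its title names no knockdown and no time after infection is given for it. In ratios to this library, tag and infection therefore cannot be told apart. Endogenous p400 was precipitated with a different antibody upon GFP KD and upon Hdac6 KD in ESCs whose labels give no tag. The Hdac6 library titled Tip60 KD has Hdac6 KD in its genotype label, so it is called the library labelled Tip60 KD. Neither the extent of any knockdown nor the identity of the cells as ESCs can be checked in ChIP profiles of this kind.

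In Tip60-p400, the acetyltransferase Tip60 modifies histone tails and the ATPase p400 exchanges histone H2A.Z into nucleosomes, both held together by the scaffold protein Trrap and by subunits that read or contact chromatin. Hdac6, a deacetylase best known for acting on tubulin in the cytoplasm, was studied as a partner of the complex in ESCs. The questions addressed were whether Tip60, p400 and Hdac6 signals were raised at the promoters of the complex's own subunit genes, and how each knockdown altered them.

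Signal is given in ppm, the number of reads covering a position for each 1000000 reads used in normalization, averaged within 500 bp of the TSS. The libraries had been normalized to between 9230000 and 31400000 reads, and the median row held between 8 and 21 reads in this window. At such counts a ratio between libraries is wide, so each is given with its 95% exact counting interval. The intervals cover counting error only, because PCR copies were kept and no replicate exists, and no p-value here tests a condition. A row was called higher or lower when it changed at least 1.5-fold and held at least 10 reads over both libraries. For Tip60, Hdac6 and untagged, all rows means the 36733 rows of the Flag ChIP files. For p400 it means the 22704 rows of the p400 files. Values over all rows therefore rest on a different set of promoters for p400 than for the Flag libraries. Each read covered about 299 bp in 5 of the files but about 148 bp in the Hdac6 files, so ppm levels of Hdac6 are not set beside those of the other proteins, and its ratios to the untagged library were scaled to the span of a read.

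The sequence just upstream of the first annotated start is shown for 4 genes on which the results turn. These are Ep400, with the highest p400 and Hdac6 signals among the 10 genes, Ing3, with the lowest p400 ratio upon Hdac6 KD, Dmap1, with the highest ratio of Tip60 to untagged signal among the 5′-most rows, and Kat5, which encodes the acetyltransferase. They are read 5′ to 3′ on the strand of the gene from the mm9 genome, and capitals mark the motifs that were searched.
Ep400 (chr5:111199737-111199986, minus strand): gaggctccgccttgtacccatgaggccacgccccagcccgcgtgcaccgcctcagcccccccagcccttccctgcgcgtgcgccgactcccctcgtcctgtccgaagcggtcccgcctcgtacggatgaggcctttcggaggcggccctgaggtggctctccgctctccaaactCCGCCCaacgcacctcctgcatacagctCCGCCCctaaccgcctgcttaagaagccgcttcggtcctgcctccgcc
Ing3 (chr6:21899365-21899570, plus strand): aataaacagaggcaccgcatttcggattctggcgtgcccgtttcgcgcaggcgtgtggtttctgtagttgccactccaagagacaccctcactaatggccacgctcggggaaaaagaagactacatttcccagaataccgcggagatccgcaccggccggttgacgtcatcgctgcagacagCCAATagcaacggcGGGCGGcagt
Dmap1 (chr4:117354879-117355080, minus strand): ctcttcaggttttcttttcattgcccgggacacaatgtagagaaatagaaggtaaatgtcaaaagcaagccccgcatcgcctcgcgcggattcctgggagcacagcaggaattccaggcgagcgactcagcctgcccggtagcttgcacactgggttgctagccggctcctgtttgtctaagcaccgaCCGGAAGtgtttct
Kat5 (chr19:5610051-5610294, minus strand): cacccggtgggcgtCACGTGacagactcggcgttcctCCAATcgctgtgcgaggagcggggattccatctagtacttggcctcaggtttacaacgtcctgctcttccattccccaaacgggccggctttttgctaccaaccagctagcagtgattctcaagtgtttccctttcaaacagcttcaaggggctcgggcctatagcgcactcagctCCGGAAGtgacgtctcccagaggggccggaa
The far end of the Ep400 stretch runs into the first exon of Gm15559, a gene on the opposite strand. All 4 stretches are rich in CG dinucleotides, with 25 in that of Ep400, 19 in that of Ing3, 12 in that of Dmap1 and 16 in that of Kat5. Over the full 250 bases upstream of the row, 8 of the 10 genes held between 15 and 28 CG dinucleotides, whereas Ruvbl2 held 10 and Ruvbl1 held 6, the median of all rows.

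Motifs were counted on both strands of the 250 bases upstream of the 5′-most row. The Sp1 motif GGGCGG was present at 6 genes (Ep400, Trrap, Epc1, Ing3, Actl6a and Yeats4) and at 35.2% of all rows, and the NF-Y motif CCAAT at 6 genes (Kat5, Epc1, Ing3, Ruvbl1, Ruvbl2 and Actl6a) and at 33.2% of all rows. The ETS motif CCGGAAG was found at Kat5 and Dmap1 (7.98% of all rows), the E-box CACGTG at Kat5 (6.12%) and the Nrf1 motif GCATGCGC at Yeats4 (2.41%). The YY1 motif AAGATGGC was at none of the 10 and at 1.76% of all rows. These are matches of letters and were not tested as binding sites.

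p400 signal was high at the promoters of its own complex's genes upon GFP KD. Of the 18 rows, 9 lay among the top 25% of all rows, and of the 10 5′-most rows 7 did. The median over the 5′-most rows was 0.396 ppm, between 0.261 ppm at Ruvbl1 and 0.536 ppm at Ep400, against a median of 0.239 ppm over all rows. Ep400 (chromosome 5, TSS at 111199736), Trrap (chromosome 5, TSS at 145529661) and Ing3 (chromosome 6, TSS at 21899615) had the 3 highest levels, 0.536, 0.507 and 0.470 ppm from 46, 44 and 41 reads. Their counting intervals overlapped each other and those of the next genes in order, Yeats4 and Actl6a, so the order among them is not resolved. Within the library, signal summed over the 10 promoters was 2.10-fold (1.74 to 2.54) that of their own flanks 1500 to 2000 bp away, and the promoter exceeded the flank at 10 of 10 genes (77.5% of all rows). Over all rows the promoter was 1.64-fold the flank. It was 1.75-fold (1.44 to 2.14) over 9 genes called here the other subunit genes of the complex. These are Epc2, Brd8, Vps72, Meaf6, Morf4l1, Morf4l2, Mbtd1, Actb and H2afz. The name is loose, because H2afz encodes the histone H2A.Z that p400 exchanges. Mbtd1 and Actb co-purified with Tip60 in the paper but are not marked there as known subunits. Over 13 genes of the subunit-sharing SRCAP and INO80 complexes the promoter was 1.98-fold (1.67 to 2.37) the flank. Both intervals overlapped that of the 10 genes. Of the rows of these lists, 7 of 14 and 7 of 16 lay among the top 25%. High p400 signal was therefore not particular to the 10 genes. Signal was higher downstream than upstream of the TSS at 8 of 10 genes (60.5% of all rows). The p400 library has no matching control precipitation among the files used here, so this contrast with the flank is the only measure of its background.

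Hdac6 signal was raised over the untagged library at the same promoters. Of the 18 rows, 15 were called higher (59.3% of all rows), among them all 10 of the 5′-most rows, and none was called lower (10.4%). Summed over the 5′-most rows the ratio was 3.15 (2.49 to 3.93, from 200 reads against 128). It was 1.84 over all 36733 rows, which include those absent from the p400 files, and the counting intervals did not overlap. By the exact conditional binomial test on reads, which compares these libraries and not the conditions, 9 of the 18 rows passed an adjusted p of 0.05, all of them higher (22.8% of all rows, and 0.352% lower). The summed ratio was 2.01 (1.58 to 2.60) over 9 other subunit genes of the complex and 2.26 (1.86 to 2.78) over 13 genes of the SRCAP and INO80 complexes, which share subunits with Tip60-p400. The interval of the 10 genes overlapped those of both lists. In the first of these lists 10 of 14 rows were called higher and 3 lower, and in the second 12 of 16 higher and 1 lower.

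The highest ratio of Hdac6 to untagged signal at a 5′-most row was that of Ep400, at 5.40 (2.65 to 12.1). Trrap followed with 4.57 (2.30 to 10.1), Dmap1 with 4.48 (1.89 to 9.98) and Ing3 with 4.26 (1.74 to 11.4). The lowest were Ruvbl1 with 1.82 (0.790 to 3.82) and Ruvbl2 with 2.01 (0.959 to 4.16), and with Epc1 these were the genes whose interval reached 1. The intervals of all 10 genes overlapped.

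Within the Hdac6 library, promoter signal summed over the 10 genes was 2.49-fold (1.94 to 3.30) that of the flanks, against 1.60-fold over all rows, and exceeded the flank at 9 of 10 genes (70.8% of all rows). The signal was higher downstream than upstream of the TSS at 8 of 10 genes (61.3% of all rows). The window from −100 to 300 bp held 1.72-fold (1.22 to 2.48) the signal of the window from −600 to −200 bp, while in the untagged library the same quotient was 0.609 (0.399 to 0.901). Relative to untagged, Hdac6 was therefore 4.33-fold higher (3.07 to 6.65) in the downstream window and 1.53-fold higher (1.07 to 2.26) in the upstream window. The corresponding ratios over all rows were 2.14 and 1.47. In the upstream window 6 of 13 rows tested were called higher, against 52.5% of all rows.

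Tip60 signal at these promoters stood little above the untagged library. Of the 18 rows, 5 were called higher (29.8% of all rows) and 1 lower (15.3% of all rows), and no row passed the adjusted counting test (1.25% of all rows were higher and 0.07% lower by it). Summed over the 5′-most rows the ratio was 1.33 (1.04 to 1.68, from 156 reads against 128), and that of all rows, 1.17, lay within this interval. Only Dmap1 among the 5′-most rows, at 2.40 (1.03 to 5.42), had an interval that stayed above 1. Within the Tip60 library the promoters held 1.32-fold (1.03 to 1.68) the signal of their flanks (1.21-fold over all rows), and in the untagged library 0.981-fold (0.758 to 1.25). Promoter signal exceeded the flank at 9 of 10 genes in the Tip60 library (59.6% of all rows) and at 2 of 10 in the untagged library (50.1%). Among the other subunit genes of the complex, 8 of 14 rows were called higher and 2 lower, and 2 rows passed the adjusted counting test. Brd8, a bromodomain subunit, had 0.607 ppm against 0.308 ppm untagged, and Morf4l1, a chromodomain subunit, had 0.436 ppm against 0.152 ppm. None of the 10 genes had as much Tip60 signal as Brd8 or Morf4l1 at its 5′-most row. In the same list, 3 of the 14 rows lay below untagged. Among the genes, Morf4l2 had 0.0239 ppm against 0.165 ppm and Mbtd1 0.0827 ppm against 0.178 ppm. Summed over 9 genes of the list, the ratio was 1.53 (1.22 to 1.94), an interval that overlapped that of the 10 genes.

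**Figure D1:**
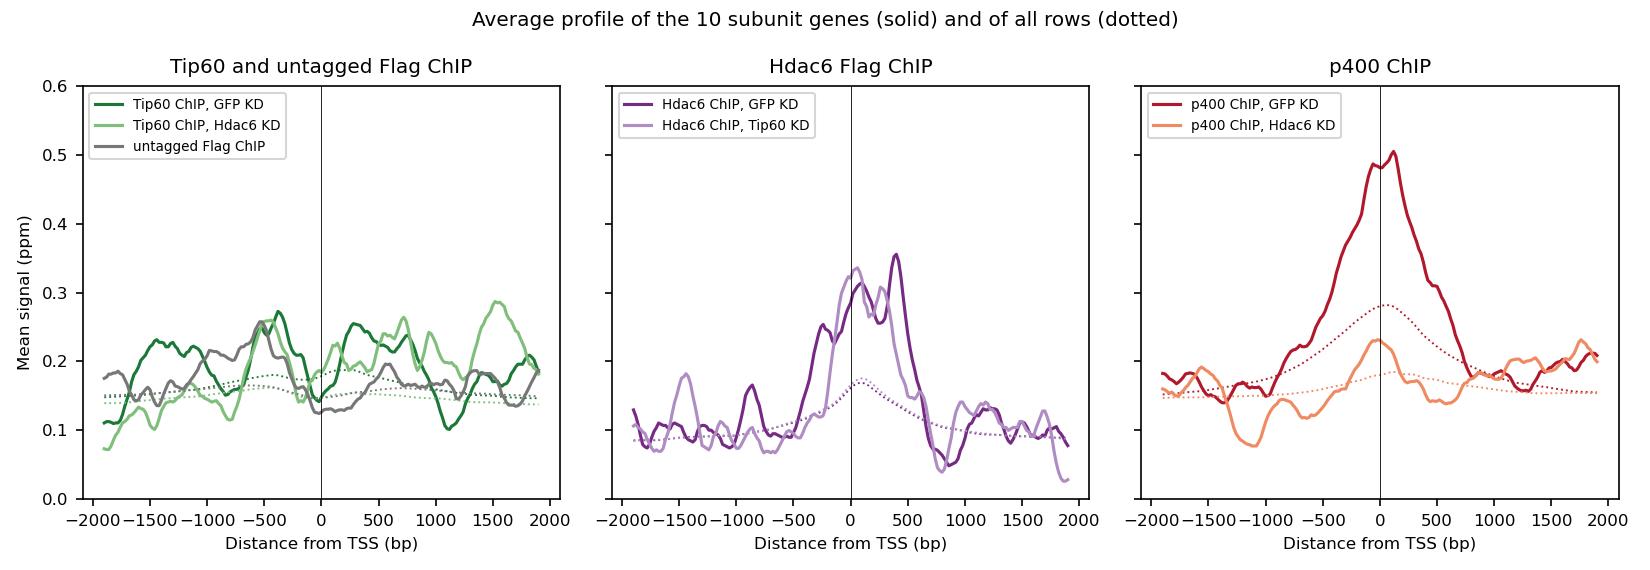
Average signal (ppm, smoothed over 100 bp) against distance from the TSS (bp) for the 5′-most rows of the 10 subunit genes (solid lines) and for all rows (dotted lines), 1 line per library, in panels for Tip60 with the untagged control, Hdac6 and p400. The p400 line upon GFP KD reaches 0.505 ppm at 120 bp and that upon Hdac6 KD 0.231 ppm at −20 bp. The Hdac6 lines rise around and downstream of the TSS. The Tip60 line upon GFP KD crosses the untagged line on both sides of the TSS. It lies above the untagged line at 280 bp (0.255 against 0.137 ppm) and below it at 1000 bp (0.149 against 0.168 ppm).

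In the averaged profile, p400 upon GFP KD formed a single broad rise across the TSS, highest at 120 bp with 0.505 ppm. Hdac6 upon GFP KD was highest at 400 bp with 0.356 ppm. Tip60 upon GFP KD had maxima on either side of the TSS, 0.273 ppm at −380 bp and 0.255 ppm at 280 bp, and the untagged library had one upstream as well, 0.258 ppm at −520 bp. From −100 to 300 bp the untagged line was lower, at a mean of 0.130 ppm against 0.186 ppm for Tip60.

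Among the genes, 5 have a downstream row at least 2000 bp from the 5′-most one, which allows a comparison inside a single library, free of differences in depth or scaling between libraries. p400 signal upon GFP KD was 2.92-fold (1.60 to 5.44) higher at the 5′-most row of Ep400 than 67099 bp further inside the gene, 3.79-fold (1.90 to 7.63) higher at Trrap than 35908 bp inside, and 2.00-fold (1.09 to 3.59) higher at Yeats4 than 7115 bp inside. Hdac6 upon GFP KD showed the same contrast at these 3 genes, with quotients of 2.56 (1.24 to 5.36), 3.67 (1.55 to 8.89) and 2.29 (1.08 to 5.12). In the untagged library the 3 quotients were 0.621, 0.856 and 0.876, and the interval of each included 1. The downstream row of Trrap lies 29 bp from an annotated start of the gene, whereas those of Ep400 and Yeats4 lie 4325 and 7117 bp from one. The 5′-most windows were richer in GC, with 69.4% against 45.2% at Ep400, 63.3% against 51.4% at Trrap and 57.7% against 47.8% at Yeats4, and the part of this in the contrast was not tested. A start with no gene symbol on the other strand lies 316 bp from the 5′-most row of Ep400, so the signal there cannot be assigned to Ep400 alone.

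Epc1 and Ruvbl2 did not show this contrast. At Epc1 the downstream row, itself an annotated start, had the higher value in every library, for p400 upon GFP KD 0.418 against 0.290 ppm, and at Ruvbl2, whose rows lie 3632 bp apart, p400 had 0.363 ppm at the 5′-most row and 0.310 ppm at the downstream row, which has the start of Gys1 375 bp away. None of these quotients upon GFP KD had an interval that excluded 1. Summed over the 5 genes, the quotient was 1.69 (1.31 to 2.13) for p400, 1.53 (1.11 to 2.05) for Hdac6, 1.02 (0.749 to 1.44) for Tip60, all upon GFP KD, and 0.781 (0.561 to 1.09) for untagged.

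**Figure D2:**
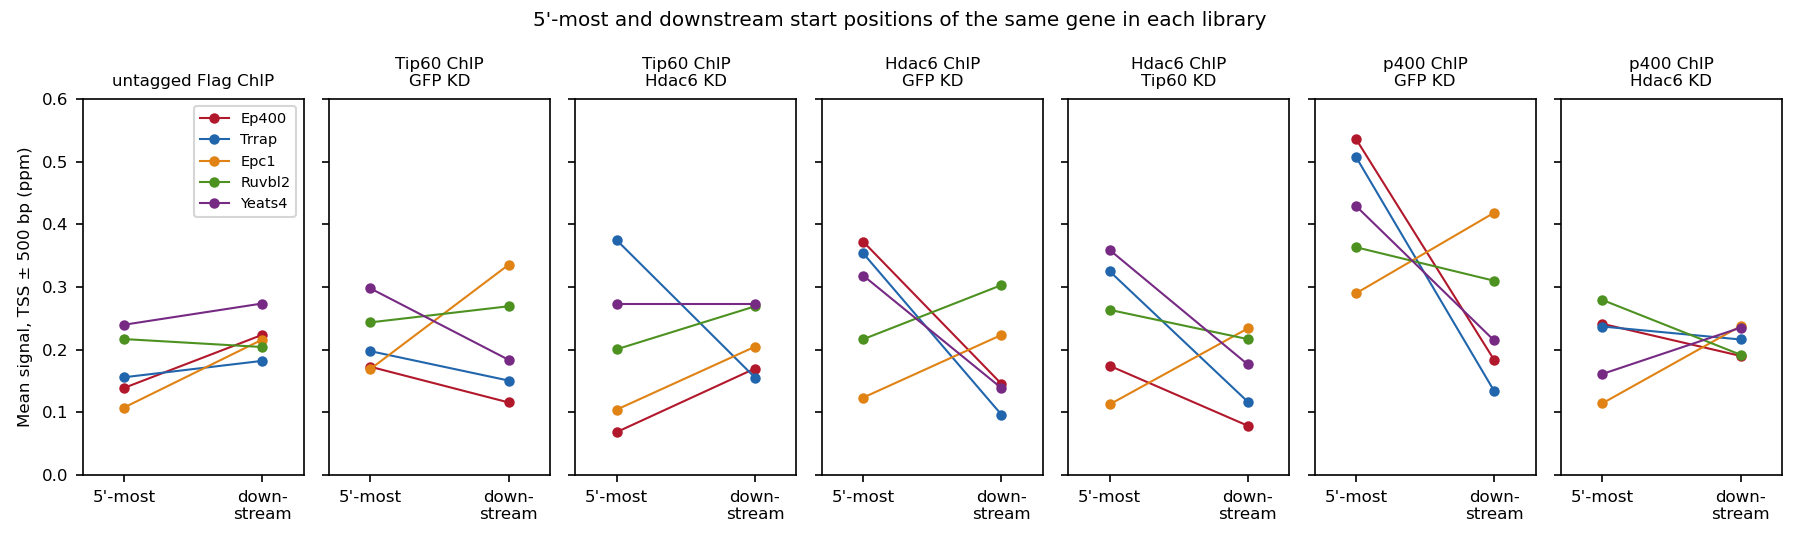
Mean signal within 500 bp of the TSS (ppm) at the 5′-most row and at a downstream row of the same gene, 1 line per gene and 1 panel per library. For p400 and Hdac6 upon GFP KD the lines of Ep400, Trrap and Yeats4 fall steeply from left to right, whereas upon Hdac6 KD the p400 values of these genes at their 5′-most rows lie between 0.161 and 0.241 ppm, close to the downstream rows.

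Upon Hdac6 KD, p400 signal was lower at nearly all of these promoters. Of the 18 rows, 13 were called lower (44.8% of all rows) and 1 higher (8.27%), and by the adjusted counting test 6 were lower (12.3%) and 0 higher (0.272%). All 10 of the 5′-most rows had less signal, 9 of them past 1.5-fold. Summed over these 10, signal changed by −54.3% (−62.0% to −45.5%, from 193 reads against 342). Over all rows it changed by −31.2%.

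Among the enzymes, p400 signal at Ep400 went from 0.536 to 0.241 ppm upon Hdac6 KD, a ratio of 0.450 (0.271 to 0.753), and at Kat5 (chromosome 19, TSS at 5610044) 0.311 and 0.199 ppm, a ratio of 0.638 (0.337 to 1.15). At Trrap, the scaffold, the levels were 0.507 and 0.237 ppm, a ratio of 0.467 (0.269 to 0.766). The lowest ratio was that of a subunit of the acetyltransferase module. Ing3, which carries a PHD finger that binds methylated histone H3, had 0.470 ppm with GFP KD and 0.129 ppm with Hdac6 KD, a ratio of 0.274 (0.139 to 0.516), and Epc1, which links the module to the rest of the complex, had 0.290 and 0.114 ppm, a ratio of 0.395 (0.177 to 0.800).

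The genes for the paired AAA+ ATPases Ruvbl1 and Ruvbl2, which also serve the INO80 and SRCAP complexes, differed in value but not beyond counting error. Ruvbl1 (chromosome 6, TSS at 88415417) had 0.261 and 0.115 ppm, a ratio of 0.441 (0.191 to 0.881), while Ruvbl2 (chromosome 7, TSS at 52693466) had 0.363 and 0.279 ppm, a ratio of 0.769 (0.457 to 1.33). It was the only 5′-most row within 1.5-fold, and this row lies inside a transcript of Gys1. The downstream row of Ruvbl2 was called lower, with a ratio of 0.619 (0.337 to 1.15). In the last group, Yeats4 (chromosome 10, TSS at 116661529), whose YEATS domain binds acylated histones, had 0.429 and 0.161 ppm, a ratio of 0.376 (0.196 to 0.675). Actl6a (chromosome 3, TSS at 32607648), an actin-related protein that is also part of BAF complexes, had 0.399 and 0.161 ppm, a ratio of 0.403 (0.211 to 0.742), and Dmap1 (chromosome 4, TSS at 117354830), which is shared with the SRCAP complex, had 0.392 and 0.173 ppm, a ratio of 0.442 (0.243 to 0.813). By the adjusted exact binomial test on reads, Ing3 (both rows, p = 0.000756 at the 5′-most), Yeats4 (p = 0.0117), Ep400 (p = 0.0204), Trrap (p = 0.0248) and Actl6a (p = 0.0275) passed, whereas Dmap1 (p = 0.0517), Epc1 (p = 0.0605), Ruvbl1 (p = 0.103), Kat5 (p = 0.349) and Ruvbl2 (p = 0.667) did not.

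**Figure D3:**
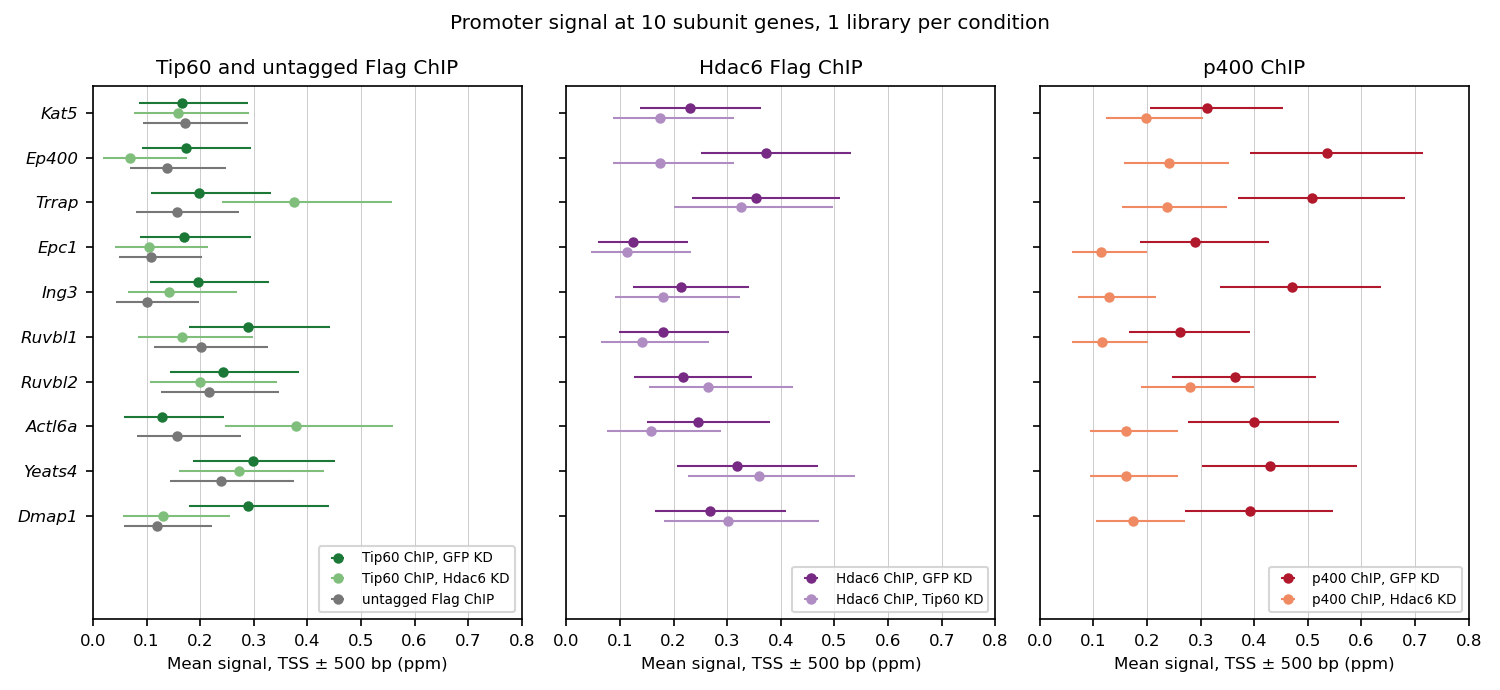
Mean signal within 500 bp of the TSS (ppm, linear axis) at the 5′-most row of each subunit gene in the 7 libraries, with 95% exact counting intervals as bars. In the p400 panel every Hdac6 KD value lies below its GFP KD value, and in the Tip60 panel Trrap and Actl6a upon Hdac6 KD, at 0.375 and 0.380 ppm, lie to the right of the other values.

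The loss at the promoters was not accompanied by a loss around them. Mean p400 signal in the flanks of the 10 genes was 0.189 ppm with GFP KD and 0.186 ppm with Hdac6 KD, and the excess of promoter over flank, 2.10-fold upon GFP KD, was 0.973-fold (0.796 to 1.19) upon Hdac6 KD. Promoter signal exceeded the flank at 6 of 10 genes upon Hdac6 KD (64% of all rows). Over all rows the promoter was 1.64-fold the flank upon GFP KD and 1.16-fold upon Hdac6 KD, and the part of this in the values of the 10 genes was not tested. The contrast along the genes was also smaller, with a summed quotient of 5′-most to downstream rows of 0.965 (0.736 to 1.27) in place of 1.69. At the inner rows of Ep400 and Yeats4 the p400 ratio of Hdac6 KD to GFP KD was 1.04 (0.496 to 2.08) and 1.10 (0.561 to 2.04), and at that of Trrap, the row called higher, it was 1.61 (0.738 to 3.41).

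A fall of this size was also seen outside the 10 genes. Of all rows in the top 25% by p400 signal upon GFP KD, 87% were called lower upon Hdac6 KD and their summed signal changed by −50.9%, which lies within the interval of the 10 genes. Of the 7 subunit genes among them, 6 were called lower. The library that ranks the rows is here also the denominator of the ratio. Such a ranking favours calls of lower, so these values cannot show that high p400 signal goes with a larger fall. The lists that follow were not ranked by signal. The 9 other subunit genes changed by −45.2% (−54.4% to −33.5%) and the 13 genes of SRCAP and INO80 by −52.9% (−60.3% to −44.7%), and these intervals overlapped that of the 10 genes. In the first list 10 of 14 rows were called lower and 0 higher, with p400 signal going from 0.639 to 0.220 ppm at Brd8 and from 0.485 to 0.137 ppm at Morf4l1, and in the second 12 of 16 rows were called lower and 0 higher. The promoters of the 10 genes had a median GC content of 57.2% against 53% over all rows, and with signal corrected for the GC content of flank windows the summed ratio was 0.488 instead of 0.457. Flank windows above 65% GC were too few for this. Ep400 (69.4%) and Actl6a (65.3%) were therefore corrected by the factor for 62.5 to 65% GC, from 110 windows.

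Tip60 signal upon Hdac6 KD did not change in 1 direction at all of the genes. It was lower at 8 of the 10 5′-most rows and higher at 2, Trrap and Actl6a, with a median ratio of 0.772. Over all rows the median was 0.837, and 20902 of the 33492 rows tested had less signal. Of the 18 rows, 6 were called lower (34.6% of all rows) and 2 higher (15.2%), and none passed the adjusted counting test in either direction (0.394% and 0.0508% of all rows). Summed over the 5′-most rows the ratio was 0.929 (0.724 to 1.17, from 129 reads against 156), an interval that included 1 and also the 0.848 of all rows. Within the Hdac6 KD library the promoter exceeded the flank at 7 of 10 genes (53% of all rows). The direction of the sum depended on the processing. It was 1.03 with equal library totals, 1.06 in the downstream window and 1.20 with the GC correction, but 0.612 after subtracting each flank and 0.717 after subtracting the untagged signal, where 10 of 12 rows tested were called lower (65.8% of all rows). That count kept only rows whose GFP KD signal exceeded untagged, which left out Actl6a, called higher without subtraction. Such a filter favours calls of lower, so the count cannot show a direction. In the GC correction, Ep400 and Actl6a again took the factor for 62.5 to 65% GC, 0.701 from 155 windows. Trrap lies in that range and took the same factor.

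The individual genes spread more widely. Tip60 signal at Ep400 went from 0.173 to 0.0686 ppm, a ratio of 0.397 (0.0814 to 1.11) from 13 and 4 reads. At Dmap1 it was 0.289 and 0.130 ppm, a ratio of 0.450 (0.163 to 0.997), and the latter level was near the 0.120 ppm of the untagged library. At Ruvbl1 the ratio was 0.576 and at Epc1 0.617, both with intervals that included 1. Of the other subunit genes, 7 of 14 rows were called lower and 4 higher.

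Actl6a went from 0.129 ppm, below its untagged level of 0.158 ppm, to 0.380 ppm, a ratio of 2.95 (1.40 to 7.53), and Trrap from 0.198 to 0.375 ppm, a ratio of 1.90 (0.949 to 3.99). These were the genes with the most Tip60 signal upon Hdac6 KD. The adjusted counting p by the exact test was 0.146 for Actl6a and 0.476 for Trrap.

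Set side by side, Tip60 and p400 signals upon Hdac6 KD were both called lower at the 5′-most rows of Ep400, Epc1, Ruvbl1 and Dmap1 and at the downstream rows of Epc1 and Ing3 (17.1% of the rows tested in both). At the 5′-most rows of Trrap and Actl6a, Tip60 was called higher and p400 lower (5.09% of those rows). The 2 ChIPs used different antibodies, and the labels give a tag for the Tip60 ChIP only. Kat5, the gene for Tip60 itself, had nearly equal Tip60 signal in both knockdowns, 0.165 and 0.159 ppm, and 0.172 ppm in the untagged library. Its ratio to untagged turned with the window, from 0.962 within 500 bp to 1.91 within 250 bp and 2.44 in the downstream window (0.201 against 0.0823 ppm). The first of these rests on 12 and 14 reads (0.393 to 2.17), and the narrower windows hold fewer. In the downstream window only 9 of the 18 rows held enough reads to be tested. No interval is given for the narrower windows, so a rise of Tip60 signal at Kat5 was not shown.

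Hdac6 signal in the library labelled Tip60 KD was close to that upon GFP KD at most of the genes. Of the 18 rows, 3 were called lower (16.9% of all rows) and 0 higher (18%), and none passed the adjusted counting test. That test called 1 row higher and 0 lower of the 28340 tested (0.00353% and 0%). The summed ratio over the 5′-most rows was 0.867 (0.698 to 1.09, from 139 reads against 200), compared with 1.02 over all rows. Promoter signal was above the flanks at 10 of 10 genes (70.4% of all rows), by 2.56-fold (1.87 to 3.59), and downstream above upstream at 9 of 10 (60.8%).

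The genes called lower were Ep400, at both of its rows, and Actl6a. At the 5′-most row of Ep400, Hdac6 signal was 0.372 ppm upon GFP KD and 0.174 ppm in the library labelled Tip60 KD, a ratio of 0.468 (0.208 to 0.945), and at its downstream row the ratio was 0.540 (0.144 to 1.60) from 12 and 5 reads. At Actl6a the levels were 0.245 and 0.157 ppm, a ratio of 0.640 (0.263 to 1.41). Yeats4, with 0.318 and 0.359 ppm, Trrap, with 0.354 and 0.325 ppm, and Dmap1, with 0.267 and 0.302 ppm, had the 3 highest levels in the library labelled Tip60 KD. At Kat5, the target of the knockdown as titled, Hdac6 had 0.230 and 0.174 ppm, a ratio of 0.757 (0.328 to 1.72).

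**Figure D4:**
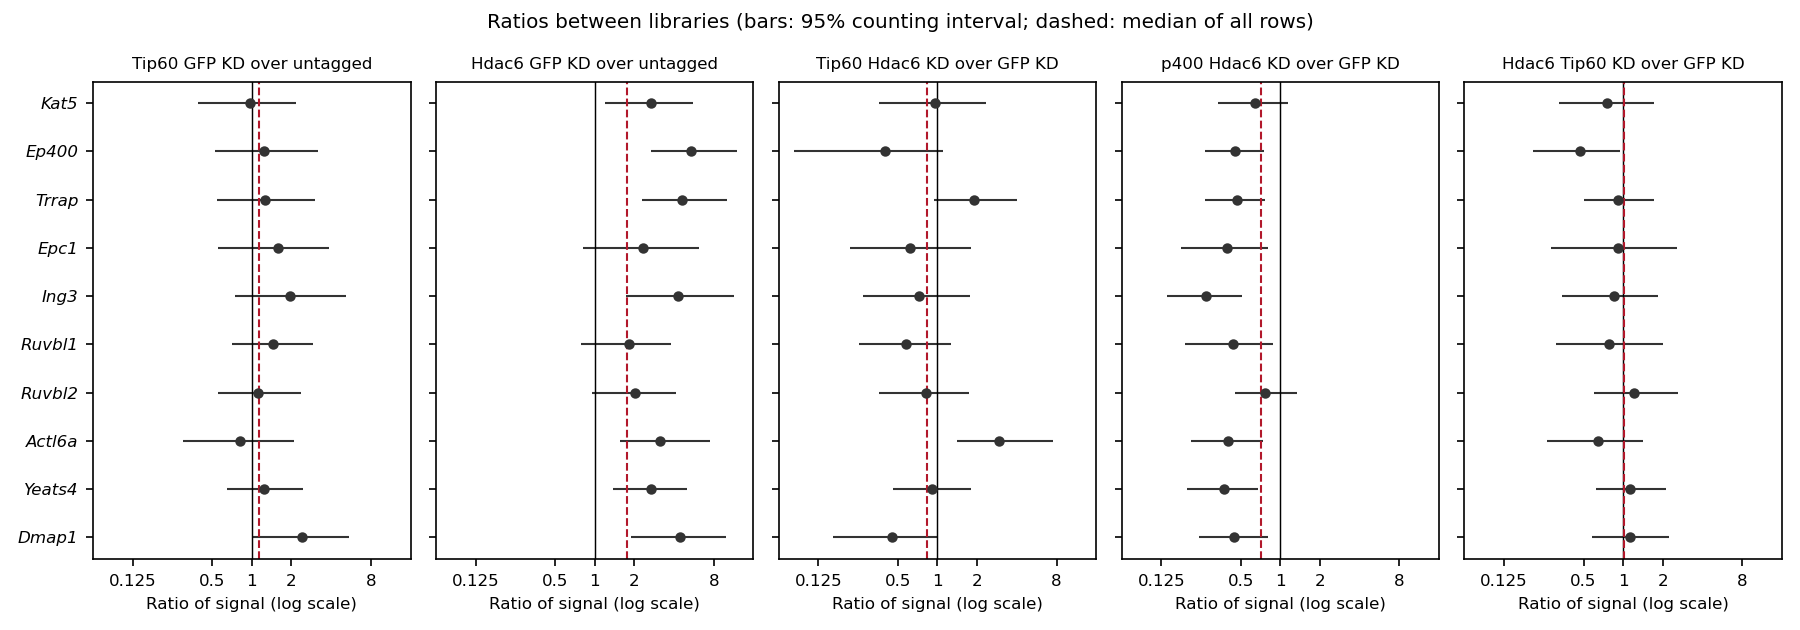
Ratio of promoter signal between libraries (log scale, base 2) at the 5′-most row of each subunit gene in the 5 comparisons, with 95% exact counting intervals as bars, a solid line at 1 and a dashed line at the median of all rows tested. Ratios of Hdac6 to untagged lie between 1.82 and 5.40 and p400 ratios upon Hdac6 KD between 0.274 and 0.769, while the other 3 panels scatter around 1.

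The comparisons share libraries: the Tip60 and the Hdac6 GFP KD libraries each serve as numerator over untagged and as denominator of a knockdown, and the untagged library serves both tagged lines, so agreement between such panels is not independent. The Hdac6 gene itself, the target of the other knockdown, lay near the bottom of the p400 ranking upon GFP KD, with the median of its 4 rows at the 10.8th percentile, and its p400 level at the 5′-most row was 0.122 ppm with GFP KD and 0.136 ppm with Hdac6 KD.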

How the data were processed

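ChIP-seq profiles of 7 mouse ESC libraries were analysed, 1 per condition. As the methods describe, the authors aligned reads to mm9 by bowtie (version not given in the sources used here; the submitters' processing notes name CASAVA 1.8.2), tolerating 1 mismatch and assigning a read with several hits to 1 of them by chance. Identical reads all counted, so PCR copies remain in the signal. Reads were lengthened, those in simple repeats were dropped, and coverage near each TSS was summarised every 20 bp. The values they deposited are normalized coverage signal from −2000 to 2000 bp. The TSS list and the scaling are not given in the sources used here. Values were whole multiples of a step, which gave reads and, from isolated reads, their span; the methods give a single extension length, which the spans of 5 files exceed.

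p400 rows were joined by identifier and file order (84 of 84 testable pairs matched). File position plus 1 was taken as the TSS, an annotated start for 40.4% of rows. Python 3.11.15, numpy 2.4.6, pandas 2.3.3, scipy 1.17.1 and statsmodels 0.14.6 were used. Intervals are Clopper-Pearson. Read counts of a row were set against each other by an exact binomial test conditional on their sum, adjusted by Benjamini-Hochberg over all rows with at least 10 reads. Scripts were tested on simulated data. The text names the 10 genes, other genes of the complex, and Hdac6. Of the gene lists, 4 genes matched no row and were not analysed here. The members and lists were chosen with earlier results of these data known. Alternatives were other windows, scalings, backgrounds, filters, call rules, gene means and a GC correction. Summing the 5′-most rows, comparing rows within a gene and using the top 25% by p400 were added after seeing the data.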

Additional observations from a re-analysis of the deposited data

Results flagged for a closer look

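Trrap was picked out because its Tip60 and p400 signals moved in opposite directions upon Hdac6 KD. Its 5′-most row went from 0.198 to 0.375 ppm in the Tip60 ChIP and from 0.507 to 0.237 ppm in the p400 ChIP, so that the Tip60 ratio was 4.06 times the p400 ratio. Actl6a was picked out for the same reason. Its Tip60 signal went from 0.129 to 0.380 ppm and its p400 signal from 0.399 to 0.161 ppm, and the Tip60 ratio was 7.33 times the p400 ratio. With 1 library per condition the difference between the ChIPs was not tested at either gene, and 5.09% of all rows tested in both ChIPs had the same pattern.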

How the results depend on the processing

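No paired analysis was possible because each group has 1 sample, and no replicate could be left out. Of 108 summary values under the alternatives, 72 stayed within the counting interval of a ratio or within 1.5-fold of a count and 36 did not, and the cause of these moves was not tested unless the setting itself gives it. For Tip60 over untagged, rows called higher went from 5 of 18 to 3 with equal totals (26.9% of all rows), 2 of 7 tested with a minimum of 30 reads (33%), 2 at 2-fold (14.3%), 0 by adjusted counting p (1.25%) and 3 of 10 by gene means (28.9%). For Hdac6 over untagged, the summed ratio of 3.15 was 3.97 within 250 bp, 2.02 within 1000 bp, 4.33 downstream, 1.53 upstream and 2.29 with equal totals, and rows called higher went from 15 of 18 (59.3% of all rows) to 6 of 13 upstream (52.5%), 3 of 7 after flank subtraction (50.3%) and 9 of 18 by adjusted counting p (22.8%). For Tip60 upon Hdac6 KD, rows called lower went from 6 of 18 (34.6% of all rows) to 3 of 14 within 250 bp (36.9%), 3 of 10 downstream (37.1%), 3 of 8 upstream (32.4%), 3 of 18 with equal totals (28.4%) or GC correction (24.7%), 1 of 18 within 1000 bp (26.8%), 2 of 8 with a minimum of 30 reads (30.5%), 2 of 18 at 2-fold (19%), 0 by adjusted counting p and 10 of 12 after untagged subtraction (65.8%), and the summed ratio of 0.929 was 0.612 after flank subtraction, 0.717 after untagged subtraction and 1.20 with GC correction. For p400 upon Hdac6 KD, the summed ratio of 0.457 was 0.553 with equal totals and −0.0243 after flank subtraction, where the promoter mean upon Hdac6 KD fell below the flank mean, and rows called lower went from 13 of 18 (44.8% of all rows) to 6 by adjusted counting p (12.3%) and 7 of 10 by gene means (44.8%). For Hdac6 in the library labelled Tip60 KD, rows called lower went from 3 of 18 (16.9% of all rows) to 5 of 15 downstream (19.9%), 7 of 16 after flank subtraction (38%), 1 at 2-fold (6.55%), 0 by adjusted counting p and 7 of 18 after untagged subtraction (33.2%), and the summed ratio of 0.867 was 0.659 upstream.

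Of 43 summed ratios under the alternatives, 5 lay on the other side of 1, in each case for a sum whose interval included 1. These were Tip60 upon Hdac6 KD within 250 bp (1.00), downstream (1.06), with equal totals (1.03) and with GC correction (1.20), and Hdac6 in the library labelled Tip60 KD downstream (1.09). Of 430 ratios of single genes, 46 lay on the other side of 1, and 8 of these belonged to a row called higher or lower, which are given here. In the upstream window the ratio to untagged was 0.982 for Tip60 at Ing3, and for Hdac6 0.826 at Kat5, 0.870 at Ing3, 0.705 at Ruvbl2, 0.682 at Yeats4 and 0.840 at Dmap1. The Tip60 ratio of Epc1 upon Hdac6 KD was 1.08 within 250 bp and 3.09 after flank subtraction. The summed ratios over untagged could not be computed after flank subtraction, because the untagged promoters did not exceed their flanks. For single rows, a subtraction kept only those whose denominator stayed positive, and a numerator that did not was called lower. In the knockdown comparisons a filter on the denominator favours calls of lower, so the counts after subtraction cannot show a direction. Equal totals shifted the log2 ratios by −0.46 for Hdac6 over untagged, 0.15 for Tip60 upon Hdac6 KD and 0.28 for p400 upon Hdac6 KD. With a median of 8 to 21 reads per row, depth leaves most differences between single genes undetectable.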
